A study of Rattus norvegicus with 24 samples.

Results

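The genes described here are 10 heat shock chaperones and their partners, Hspa1a, Hspa1b, Hsph1, Hspb1, Dnajb1, Hsp90aa1, Hspa8, Hspd1, Hspe1 and Bag3. They were chosen by name, with earlier results of these data known, and all 10 were found among the 30667 genes of the deposited table. The values come from rat lung tissue, sequenced as mRNA on an Illumina platform, in a lung cancer model in which smoky coal was the inducing agent. There are 24 samples. Sample titles run from A1 to A6, and likewise for B, C and G, so that each of the 4 letters holds 6 samples and each of the 6 numbers holds 4. All 24 samples have the same protocol label, smoky coal, and no strain, age, sex, dose or time is given. The labels do not say what a letter or a number stands for, or whether any letter is a control. Nothing in the labels says that the samples came from separate animals, so the p-values measure only the spread between these samples.

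Heat shock chaperones bind unfolded or newly made proteins and keep them from clumping, and many of them are induced together by heat, oxidants, toxic metals and other causes of protein damage. Their shared regulator is heat shock factor 1, a transcription factor that forms trimers and binds repeated GAA and TTC units in promoters. HSP70 proteins bind short unfolded stretches with help from J-domain proteins and nucleotide exchange factors, HSP90 proteins hold kinases and steroid receptors in a ready state, and the mitochondrial chaperonin encloses proteins imported into the mitochondrion.

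The units bound by heat shock factor 1 can be seen in the sequence just before the start of several of these genes. The RefSeq promoter table of the rat assembly GRCr8 held a promoter for 8 of the 10 genes, all but Hspa1b and Hsp90aa1, and the 250 bases before the annotated start were searched. A 2-unit motif, GAANNTTC or TTCNNGAA, which read the same on both strands, was present in 7 of the 8, against 13.5% of 33469 rat promoters of the same length. The promoter without a match was that of Hspa1a. This means only that these exact letters were absent from the 250 bases before its annotated start. Imperfect units and sequence further away were not searched. The 3-unit motif, GAANNTTCNNGAA or its opposite-strand form TTCNNGAANNTTC, contains 2 overlapping copies of the 2-unit motif and was present in 4 of the 8, namely Hsph1, Hspa8, Hspd1 and Hspe1, against 0.663% of all promoters. In the lists of related genes described further on, 1 of 64 promoters had the 3-unit motif, that of the collagen chaperone Serpinh1. A match is a description of the letters, not a measured binding site. The 4 promoters below are given 5′ to 3′ on the strand of the gene, with motif matches in capitals: the genes with the clearest differences between numbers, Hsph1 (chr12:10427118-10427367, plus strand) and Hspa8 (chr8:50080264-50080513, plus strand), then Hspe1 (chr9:64084077-64084326, plus strand) for the stretch it shares with Hspd1, and Dnajb1 (chr19:41431142-41431391, minus strand) as a gene with only the 2-unit motif.
Hsph1: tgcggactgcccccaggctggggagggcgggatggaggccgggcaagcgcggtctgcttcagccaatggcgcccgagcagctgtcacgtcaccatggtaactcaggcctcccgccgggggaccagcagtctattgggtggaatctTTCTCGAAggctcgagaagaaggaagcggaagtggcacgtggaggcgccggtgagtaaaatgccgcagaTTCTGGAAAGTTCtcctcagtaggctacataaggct
Hspa8: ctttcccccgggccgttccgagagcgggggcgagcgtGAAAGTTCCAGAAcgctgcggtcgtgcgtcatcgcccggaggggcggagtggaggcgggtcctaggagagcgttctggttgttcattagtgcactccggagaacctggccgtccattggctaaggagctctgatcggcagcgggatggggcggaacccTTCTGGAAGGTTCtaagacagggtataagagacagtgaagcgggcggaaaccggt
Hspe1: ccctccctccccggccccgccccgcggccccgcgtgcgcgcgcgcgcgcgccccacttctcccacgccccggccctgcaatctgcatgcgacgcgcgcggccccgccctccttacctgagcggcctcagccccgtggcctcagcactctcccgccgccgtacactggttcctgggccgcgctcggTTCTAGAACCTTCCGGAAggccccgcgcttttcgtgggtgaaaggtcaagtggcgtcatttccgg
Dnajb1: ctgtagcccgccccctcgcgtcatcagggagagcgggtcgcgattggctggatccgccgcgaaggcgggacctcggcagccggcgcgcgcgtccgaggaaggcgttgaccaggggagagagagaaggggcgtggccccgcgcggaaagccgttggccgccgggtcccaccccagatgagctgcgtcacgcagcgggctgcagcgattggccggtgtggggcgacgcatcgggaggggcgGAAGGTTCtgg
Hspd1 and Hspe1 lie head to head on chromosome 9, and the searched windows overlap. The same 18 bases, chr9:64084262-64084279, hold all 3 of the 2-unit matches of both genes.

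Values are read here as the authors' normalized read counts, a reading from their form, and their sums ran from 61717516 to 66007148 per sample. The submitters' processing notes name the mouse build GRCm38 for these rat samples, so a gene's level also reflects how well rat reads match the mouse sequence. Levels are therefore compared between samples for the same gene and not between genes. Markers of lung were present in all 24 samples: the summed value of 5 alveolar type 2 genes ran from 1082400 to 1616100, and that of 3 club cell genes from 308580 to 665440. In whole tissue, fewer cells of a type and less RNA per cell cannot be told apart.

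No difference of the chaperone genes between the letters passed at an adjusted p of 0.05. In the fit without numbers, given first, the spread also holds the differences between numbers described below. None of the 10 passed the limma F test over the 4 letters at an adjusted p of 0.05, where 0.00652% of all genes passed, and none was under an unadjusted p of 0.05, where 3.91% of all genes were. The smallest unadjusted p among the 10 was 0.278. None of the 60 pairwise letter contrasts of these genes passed either, where 0% of all genes passed in B − A, C − A and C − B, 0.00652% in G − A and in G − C, and 0.00326% in G − B. None was under an unadjusted p of 0.05, where 3.58% of all genes were in B − A, 2.98% in C − A, 1.82% in C − B, 8.15% in G − A, 3.67% in G − B and 4.03% in G − C. Hspb1 shows how close the letters were: letter A averaged 12490 ± 2870, letter B 11340 ± 2242, letter C 11790 ± 2311 and letter G 12330 ± 3620 normalized reads (SD, n = 6 each). For Hsph1, which encodes an HSP110 nucleotide exchange factor of HSP70, letter G averaged 8874 ± 3443, letter A 7377 ± 3217, letter B 6585 ± 3159 and letter C 6552 ± 1718 normalized reads (SD, n = 6 each). Hspa1b ranged from a mean of 1528 ± 812 in letter B to 2343 ± 1725 in letter G (SD, n = 6 each), and neighbouring letters in that order did not differ beyond their spread. The largest difference of means was that of Hspa1a between G and B, a log2 difference of 0.52 (SE 0.41). Letter G had the highest mean for 6 genes and letter A for 4, while letter B had the lowest for 6 and letter C for 4. None of these orders passed at an adjusted p of 0.05. Set against the sample of the same number, Hsph1, Hspa1b, Hsp90aa1 and Hspa8 were higher in G than in B in 6 of 6 numbers, which held for 2.12% of all genes, and Hsph1 was also higher in G than in C in 6 of 6, which held for 1.96%. With the number as a block the smallest adjusted p of these 4 genes in G − B was 0.328, for Hsp90aa1 (log2 0.35, SE 0.10). In that blocked fit too none of the 10 genes passed, where 0.0391% of all genes passed the F test over the letters and 1.27% (G − A), 0.0359% (G − C), 0.00652% (G − B) and 0% (the other 3 contrasts) passed in the contrasts. At an unadjusted p of 0.05, 10 of the 60 blocked contrasts of these genes passed, beside 7.93% of all blocked contrasts of all genes.

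The spread of the chaperones followed the number in the title instead. In a limma fit with letter and number as additive terms, 9 of the 10 genes passed the F test over the 6 numbers, all but Hspa1a (adjusted p = 0.0917), where 31.5% of all genes passed. The number accounted for between 43.0% of the variance of log2 values (Hspa1a) and 79.5% (Hspa8), and the letter for between 2.43% (Bag3) and 14.9% (Hsp90aa1). Over all genes the median shares were 37.1% for the number and 9.45% for the letter. Shares expected by chance are 21.7% for the number and 13.0% for the letter. Samples numbered 4 stood at the high end and samples numbered 6 at the low end. Number 4 was the highest sample of its letter in 34 of the 40 combinations of gene and letter, and number 6 was the lowest in 29 of them. These combinations come from the same few samples and from genes that vary together, so they are not 40 separate observations. The share over all genes was not computed.

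**Figure D1:**
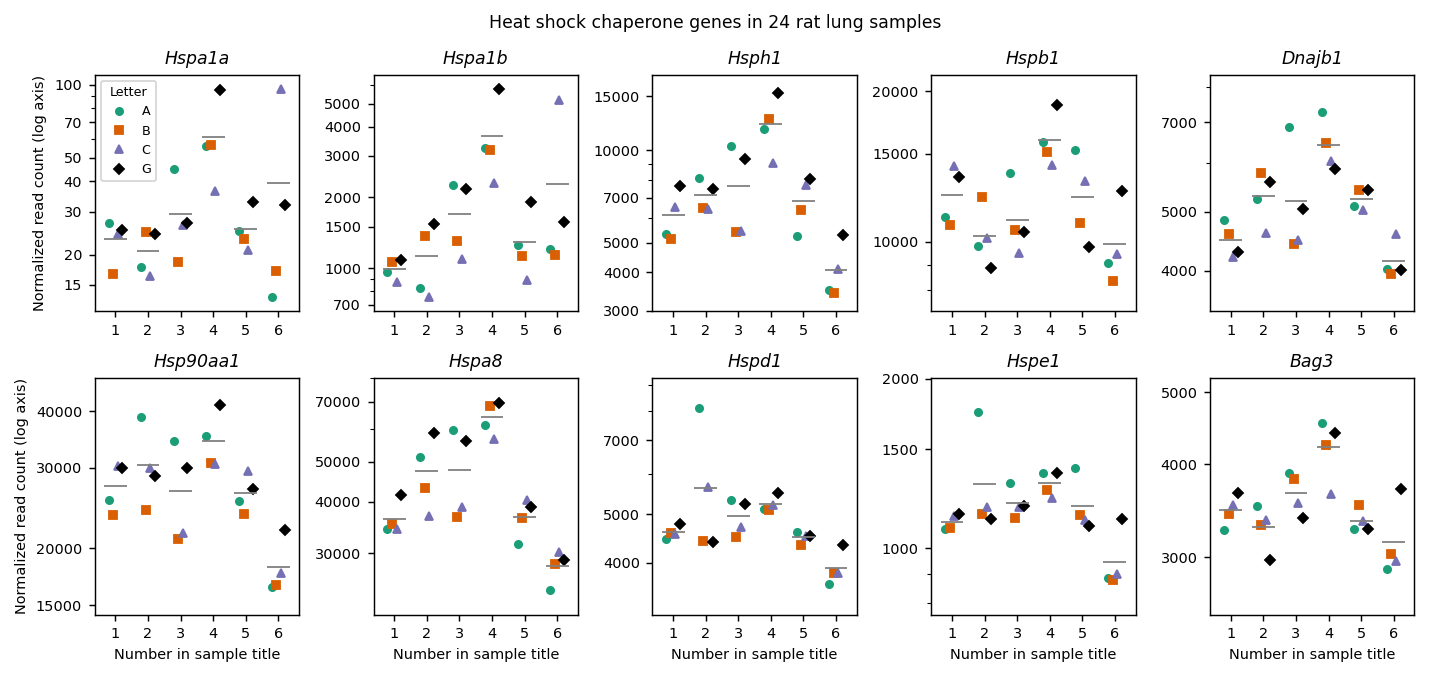
Normalized read counts of the 10 chaperone genes (vertical axes, log scale) by the number in the sample title (horizontal axes), with 1 point per sample, letters told apart by colour and symbol, and a grey line at the mean of each number. Number 4 samples lie at the top and number 6 samples at the bottom of most panels, and C6 stands high among number 6 for Hspa1a and Hspa1b.

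With each number set against the mean of the other 5, 8 of the 10 genes were higher in number 4 at an adjusted p of 0.05, against 2.72% of all genes called higher, and 6 of the 10 were lower in number 6, against 4.02% of all genes called lower. The median log2 difference of the 10 genes was 0.48 in number 4 and −0.34 in number 6, beside medians of 0.003 and 0.001 over all genes. None of the 10 passed for numbers 1, 2, 3 or 5, where 11.9%, 21.8%, 4.98% and 1.97% of all genes passed in either direction. At an unadjusted p of 0.05 the counts there were 3, 5, 0 and 1, beside 23.9%, 32.2%, 17.4% and 15.3% of all genes. This count of none does not hold in every setting. Without C6, Hspa1b was lower in number 1 (log2 −0.63, adjusted p = 0.00331) and in number 2 (log2 −0.50, adjusted p = 0.00843). Without G2, 3 genes were higher in number 2, with Hspd1 at 0.37 (adjusted p = 0.00493), Hsp90aa1 at 0.30 (adjusted p = 0.0479) and Hspe1 at 0.24 (adjusted p = 0.0472). Shares of all genes called in numbers 1 and 2 were not computed for these fits. With all samples, 11.5% of all genes were called higher in number 2. Each comparison counts the other extreme number among its reference samples. Against numbers 1, 2, 3 and 5 alone, 7 genes were higher in number 4 and 6 were lower in number 6, and Hsp90aa1 in number 4 no longer passed (adjusted p = 0.0597).

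**Figure D2:**
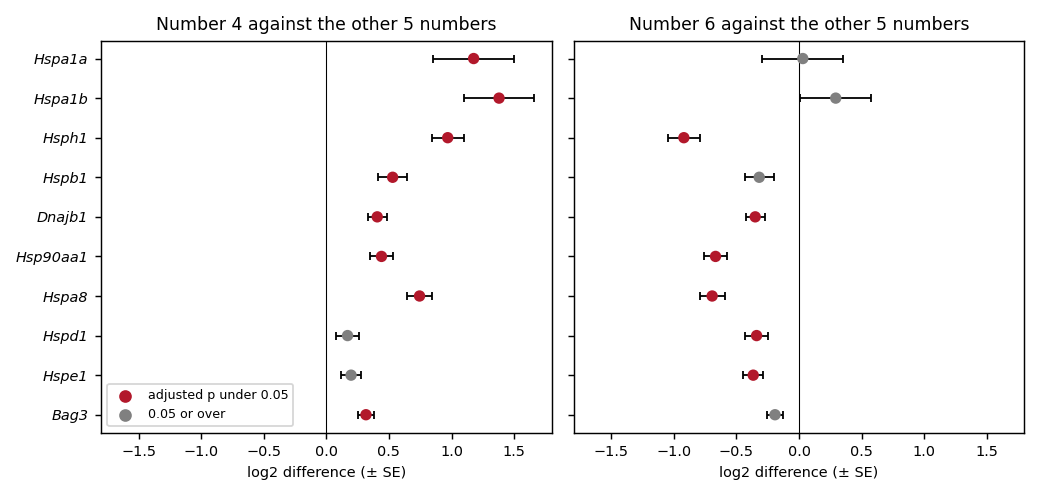
Log2 difference of number 4 (left) and number 6 (right) from the mean of the other 5 numbers (limma, letter as an additive term) for the 10 chaperone genes, with bars of ± 1 standard error. Red points, with an adjusted p under 0.05, lie above 0 for 8 genes in number 4 and below 0 for 6 genes in number 6, and grey points did not pass.

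The stress-inducible HSP70 pair moved most in number 4. Hspa1b, a cytosolic HSP70 that is low at rest and rises under stress, was read at 3252 in A4, 3170 in B4, 2313 in C4 and 5782 in G4. The other 20 samples ran from 755 to 5188, and the highest of these was C6. The log2 difference was 1.38 (SE 0.28, adjusted p = 0.0072), which is 2.60-fold. Its near-identical copy Hspa1a was read at 55.9 in A4, 56.7 in B4, 36.3 in C4 and 94.8 in G4, against 13.4 to 95.7 in the other samples, and its log2 difference was 1.18 (SE 0.33, adjusted p = 0.0408). Of the 24 fits with 1 sample removed, 14 lost this call of Hspa1a. Hspa1a made up 1.10% to 2.71% of the sum of the pair (median 1.79%), and reads of copies this alike can be assigned to either gene, so the split between them is uncertain. With the values of both copies added into 1 gene, 7 of the then 9 genes were higher in number 4.

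Hspa8 and Hsph1 were the 2 genes with the smallest adjusted p in the F test over the numbers (2.57e-05 and 4.18e-05), and both were called in number 4 and in number 6. Hspa8, the constitutive HSP70 known as Hsc70, was read at 61643 in A4, 68291 in B4, 56939 in C4 and 69687 in G4, and at 24443 in A6, 28197 in B6, 30218 in C6 and 28883 in G6. Number 6 lay below every other sample, the next lowest being A5 at 31497, and it was the only gene of the 10 without overlap between number 6 and the rest, where 0.212% of all genes lay wholly lower. The log2 difference was 0.74 (SE 0.10, adjusted p = 0.000266) for number 4 and −0.69 (SE 0.10, adjusted p = 0.000278) for number 6. Number 4 overlapped with the rest for this gene through A3 at 59758 and G2 at 58789, both above C4. None of the 10 genes was free of overlap in number 4, where 0.192% of all genes lay wholly higher.

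Hsph1 was read at 11715 in A4, 12627 in B4, 9067 in C4 and 15368 in G4, and at 3498 in A6, 3434 in B6, 4114 in C6 and 5305 in G6. The remaining 16 samples lay between 5150 and 10325, so that both ends overlapped with them only slightly, C4 below A3 and G3, and G6 above B1 and A5. Its log2 difference was 0.97 (SE 0.13, adjusted p = 0.000255) in number 4, a 1.96-fold higher level, and −0.92 (SE 0.13, adjusted p = 0.00023) in number 6, a 1.89-fold lower level. Number 4 was the highest and number 6 the lowest sample in all 4 letters.

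Of the partners of HSP70, Dnajb1 and Bag3 moved less. Dnajb1 encodes a J-domain protein that stimulates the ATPase of HSP70, and it was read at 7293, 6490, 6043 and 5870 in number 4 and at 4028, 3948, 4592 and 4012 in number 6 (letters A, B, C and G in order). The log2 differences were 0.41 (SE 0.08, adjusted p = 0.00403) and −0.35 (SE 0.08, adjusted p = 0.00752). Its highest sample outside number 4 was A3 at 6877. Bag3, a nucleotide exchange factor that links HSP70 and small heat shock proteins to autophagy, was read at 4551, 4252, 3645 and 4414 in number 4, against 2887 to 3892 in all other samples. It was 1.24-fold higher there (log2 0.32, SE 0.06, adjusted p = 0.00573), while number 6, at 2887, 3030, 2968 and 3710, did not pass (log2 −0.19, SE 0.06, adjusted p = 0.0612).

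Hsp90aa1, the inducible form of cytosolic HSP90, was read at 35188 in A4, 30717 in B4, 30589 in C4 and 41167 in G4. In number 6 it was read at 16445 in A6, 16615 in B6, 17639 in C6 and 21892 in G6. The low end was the clearer of the pair: the other 20 samples started at 20921, so that G6 alone overlapped, and the log2 difference was −0.67 (SE 0.10, adjusted p = 0.000272). At the high end A2, at 38830, exceeded A4, B4 and C4, and the log2 difference was 0.44 (SE 0.10, adjusted p = 0.0101). Hspb1, the small heat shock protein HSP27, which holds unfolded proteins without using ATP, was read at 15838 in A4, 15102 in B4, 14224 in C4 and 18803 in G4. This was a log2 difference of 0.53 (SE 0.12, adjusted p = 0.0117), and A5 at 15292 was the highest sample elsewhere. In number 6 Hspb1 was read at 9068, 8342 and 9468 in A, B and C but at 12630 in G6, and the difference did not pass (log2 −0.32, SE 0.12, adjusted p = 0.102).

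The mitochondrial pair was lower in number 6 and did not pass in number 4. Hspd1 encodes HSP60, the chaperonin ring, and was read at 3636 in A6, 3826 in B6, 3813 in C6 and 4346 in G6. The lowest sample outside number 6 was B5 at 4345, and the log2 difference was −0.34 (SE 0.09, adjusted p = 0.0257). Hspe1 encodes HSP10, the lid of that ring, and was read at 887, 878, 900.2 and 1127 in number 6 in the same order of letters (log2 −0.37, SE 0.08, adjusted p = 0.0066). In number 4 the values were 5110, 5090, 5217 and 5493 for Hspd1 (log2 0.17, adjusted p = 0.33) and 1364, 1271, 1230 and 1361 for Hspe1 (log2 0.20, adjusted p = 0.16). The highest sample of both genes was A2, at 8095 for Hspd1 and 1747 for Hspe1.

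The number 4 calls rest on few samples. Without A4 and B4, a choice made after the data had been seen, none of the 10 genes passed in number 4 (adjusted p from 0.0892 to 0.592), although their median log2 difference was 0.50 and only 0.0228% of all genes were then called higher. The count was 6 without A4 alone, 5 without B4 alone and 5 without G4 alone. Of all genes, 0.832%, 0.724% and 2.29% were called higher in these fits, beside 2.72% with all samples. The median log2 difference of the 10 genes was 0.507, 0.474 and 0.445, beside 0.484. In number 6 the count was 3 without A6 and 4 without B6, where 1.28% and 1.03% of all genes were called lower, beside 4.02%. The medians there were −0.273 and −0.341, beside −0.344. Markers of other tissues were high in A4 and B4: the summed value of 8 skeletal muscle genes was 86345 in A4 and 19588 in B4, beside 2058 in C4, 2103 in G4 and a median of 2106 over all samples. The 7 squamous epithelial genes summed to 18302 in A4 and to between 1388 and 1965 in the other number 4 samples. In number 4, where 4.74% of all genes were called in either direction, 4 of the 8 skeletal muscle genes, 3 of the 7 squamous genes, 4 of the 5 red blood cell genes found, 2 of the 3 club cell genes and 1 of the 4 ciliated cell genes were higher. Called lower there were 3 of the 5 proliferation genes, 1 of the 4 macrophage genes and 1 of the 4 B and plasma cell genes. In C4 and G4, where the muscle sum was near its median, Hsph1 was read at 9067 and 15368 and Hspa8 at 56939 and 69687, and G4 had the highest value of the 24 samples for both. Red blood cell genes summed to 1073900 in A4, 859460 in B4, 766150 in C4 and 148020 in G4. In number 6, where 8.13% of all genes were called in either direction, 4 of 4 T cell genes, 3 of 4 B and plasma cell genes and 1 of 5 alveolar type 1 genes were higher, and 3 of 5 smooth muscle genes and 2 of 5 alveolar type 2 genes were lower. The T cell sum ran from 2521 to 3015 against a median of 2132 over all samples, and the alveolar type 2 sum from 1090200 to 1170000 against a median of 1276000. In number 4 the club cell sum ran from 560810 to 665440 against a median of 483500. The part of these other cells in the chaperone differences was not tested.

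The inducible HSP70 pair parted from several other chaperones most strongly in sample C6. Hspa1b was read at 5188 there, the second highest of the 24 samples, and Hspa1a at 95.7, the highest. In A6, B6 and G6 Hspa1b was read at 1211, 1136 and 1570, and Hspa1a at 13.4, 17.0 and 32.0. Several other chaperones of C6 stood among the low values of number 6, with Hsph1 at 4114 and Hsp90aa1 at 17639. Hspa8 at 30218 and Dnajb1 at 4592 were the highest of number 6. The ratio of Hspa1b to Hsph1 was 1.26 in C6, 0.376 in G4, which came next, and 0.226 at the median. After G4 came the other number 6 samples, A6 at 0.346, B6 at 0.331 and G6 at 0.296. After letter and number means were removed, Hspa1b in C6 deviated upward by 1.64 on the log2 scale. Among 15914 genes with a mean of at least 100, it had rank 4 for upward deviation. With C6 in the fit the number 6 differences were 0.29 (SE 0.28, adjusted p = 0.615) for Hspa1b and 0.03 (SE 0.33, adjusted p = 0.977) for Hspa1a. Without C6 they were −0.36 and −0.61 and did not pass either (adjusted p = 0.185 for both).

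**Figure D3:**
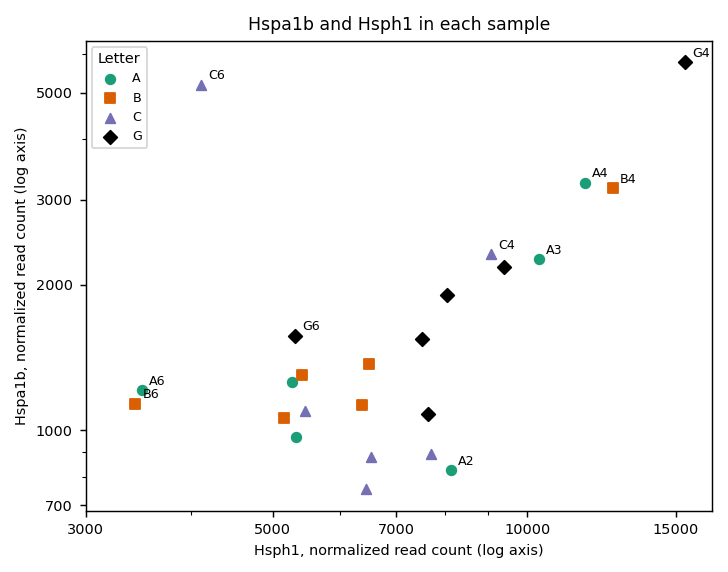
Hspa1b against Hsph1 in the 24 samples, as normalized read counts on log axes, with letters told apart by colour and symbol and selected samples named. Number 4 lies toward the upper right, and C6 lies far to the left of it, at a low Hsph1 value, with an Hspa1b to Hsph1 ratio of 1.26 against a median of 0.226.

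Most of the chaperones rose and fell together from sample to sample. Over the 24 samples, 37 of the 45 pairs of genes had a Pearson correlation of log2 values with an adjusted permutation p under 0.05, and 33 had a Spearman correlation under it. The median Pearson r was 0.561. Samples that share a number are not independent, so these permutation p-values, which treat all 24 samples as exchangeable, are too small. With letter and number means removed the median r was 0.413, and 15 of the 45 pairs had r over 0.5. The matching shares and medians over pairs of all genes were not computed. Whether the chaperones vary together more closely than other genes do was therefore not tested. The closest pair was Hsph1 and Hspa8, with r = 0.929 and rho = 0.932, each with the smallest permutation p that 100000 resamples can give, 1e-05, and r = 0.905 without B4 and G4, the samples farthest from the median of Hsph1. Hspa1a and Hspa1b had r = 0.913 and rho = 0.797, and r = 0.828 without C6 and G4. The 2 genes of the mitochondrial chaperonin had r = 0.89 and rho = 0.817, and r = 0.792 without A2 and A6. Between these sets r could be lower: Hspa1b and Hsph1 had r = 0.48 and rho = 0.379, with r = 0.625 without C6 and G4, and the lowest value was that of Hspa1b and Hspd1, r = −0.024.

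Related genes of the cytosol were also called in numbers 4 and 6. Of all genes, 2.72% were called higher in number 4 and 4.02% lower in number 6. Of 10 genes of the HSP90 system, 6 were higher in number 4 and 6 were lower in number 6. Hsp90ab1, the constitutive cytosolic HSP90, was read at 103990 in A4, 110908 in B4, 94235 in C4 and 130518 in G4 and at 56442, 57497, 58309 and 72925 in the number 6 samples. Its log2 differences were 0.49 (adjusted p = 0.000755) and −0.52 (adjusted p = 3e-04). Fkbp4, a co-chaperone of steroid receptors, had 0.63 and −0.59 (adjusted p = 0.000293 and 3e-04), and Ahsa1, which activates the ATPase of HSP90, had 0.40 and −0.38 (adjusted p = 0.000161 and 0.000141). Of 15 further genes of the HSP70 system, 4 were higher in number 4 and 4 lower in number 6. The J-domain gene Dnaja1 and the HSP70-interacting gene St13 were in both sets, with 0.69 and −0.51 for Dnaja1 (adjusted p = 0.00128 and 0.00761) and 0.30 and −0.29 for St13 (adjusted p = 0.00165 and 0.00134). Hspa4l, another HSP110, was higher in number 4 (log2 0.47, adjusted p = 0.0105). Of 8 further small heat shock genes 1, Hspb8, a partner of Bag3, passed in each, at 0.53 (adjusted p = 0.000304) and −0.26 (adjusted p = 0.0302). Cryab, the lens crystallin that is also made in muscle, and Hspb2 passed the F test over the numbers through number 2, where both were lower (log2 −0.42 and −0.41, adjusted p = 0.000418 and 0.000783). Without A4 and B4 none of the listed genes passed in number 4, where 0.0228% of all genes were called higher. Without C6 and G4 the number 6 counts were 4 for the HSP90 system, 2 for the HSP70 system and 0 for the small heat shock genes. Of all genes, 1.88% were called lower in number 6 in that fit.

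**Figure D4:**
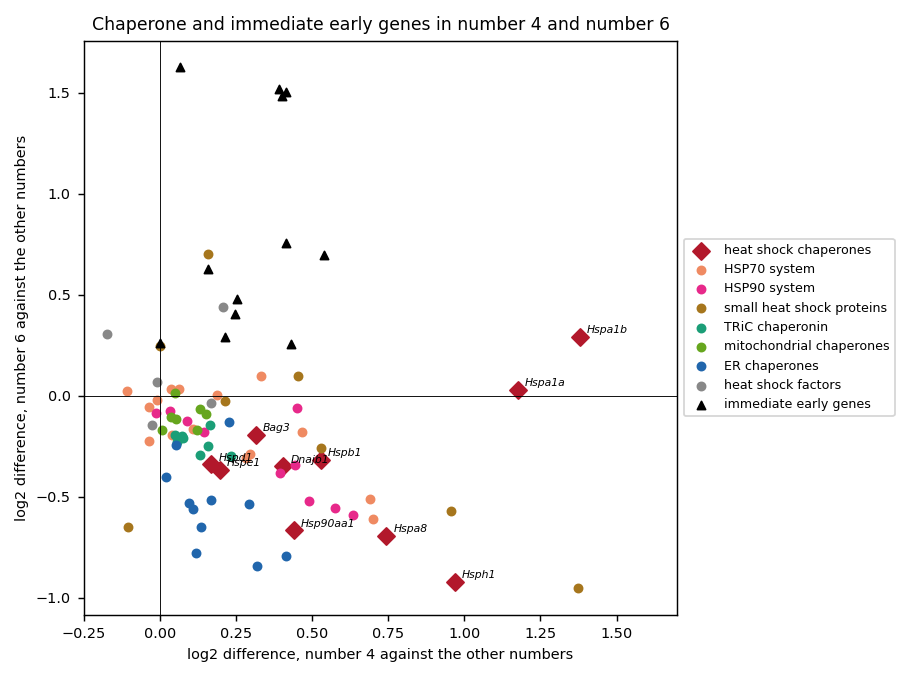
Log2 difference of number 4 from the mean of the other 5 numbers (horizontal axis) against that of number 6 (vertical axis) for the 10 chaperones and the genes of the related lists, coloured by list. All 10 chaperones (red diamonds) lie right of 0, 8 of them below 0 on the vertical axis, and immediate early genes (black triangles) lie above 0; the 2 axes share samples, so their relation is not a result.

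Other chaperone systems were lower in number 6 without a matching count in number 4. The shares of all genes were again 4.02% lower in number 6 and 2.72% higher in number 4. All 8 subunits of TRiC, the cytosolic chaperonin that folds actin and tubulin, were lower in number 6 and 2 were higher in number 4. Without C6 and G4 these counts were 2 and 0, where 1.88% of all genes were called lower in number 6 and 2% higher in number 4. The median TRiC log2 difference in number 6 was −0.23 in that fit and −0.219 with all samples. Cct3 differed by −0.30 in number 6 (adjusted p = 0.00253) and 0.23 in number 4 (adjusted p = 0.0172), Cct4 by −0.15 (adjusted p = 0.0367) and 0.17 (adjusted p = 0.0269), and Tcp1 by −0.29 (adjusted p = 0.00509) and 0.13 (adjusted p = 0.233). Of 11 chaperones of the endoplasmic reticulum, 10 were lower in number 6 and none was higher in number 4. Serpinh1, the collagen chaperone HSP47, differed by −0.78 (adjusted p = 0.000264), and Sdf2l1 and Creld2, genes of the unfolded protein response, by −0.84 (adjusted p = 0.00166) and −0.53 (adjusted p = 0.00299). These 2 lists were higher in number 2, with 10 of 11 ER genes and 7 of 8 TRiC genes called against 11.5% of all genes. None of the 10 heat shock chaperones was called there. Without A2 and C2, left out after the data had been seen, 4 ER genes and 0 TRiC genes were called in number 2. Over all genes, calls higher in number 2 then fell from 3527 to 1512. The median log2 difference in number 2 went from 0.435 to 0.267 for the ER genes and from 0.2 to 0.047 for TRiC. Of 7 further mitochondrial chaperone and protease genes 1 was higher in number 4, Dnaja3 (log2 0.15, adjusted p = 0.0405), and 1 was lower in number 6, Clpb (log2 −0.17, adjusted p = 0.0499), and both counts were 0 without C6 and G4.

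Of a list of 5 genes, heat shock factors and the binding protein gene Hsbp1, 3 passed the F test over the numbers, which 31.5% of all genes passed. Hsbp1 was higher in number 1 (log2 0.25, adjusted p = 0.0043). Hsf1 was read at 4813, 4679, 4551 and 4981 in number 4, and its log2 difference was 0.17 (adjusted p = 0.0302). Among the 5, Hsf4 was the single gene called in number 6, and it was higher there (log2 0.44, adjusted p = 0.00618).

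Immediate early genes, which are switched on within minutes of a stimulus or of tissue handling, were higher in number 6. Of 12 such genes 8 were higher in number 6, against 4.11% of all genes. None passed in number 4, where 4.74% of all genes passed in either direction. Nr4a1, a nuclear receptor of this class, was read at 13551 in A6, 14323 in B6, 8151 in C6 and 21244 in G6, with a log2 difference of 1.52 (adjusted p = 0.00654). It was also high in C4 at 14330 and in A5 at 13377, so the groups overlapped. Dusp1, a phosphatase of MAP kinases, differed by 0.76 (adjusted p = 0.0159) and Junb, a subunit of the AP-1 factor, by 0.70 (adjusted p = 0.0241). Without C6 and G4 the number 6 count was 4, and over all genes the count called higher there fell from 1261 to 640.

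**Figure D5:**
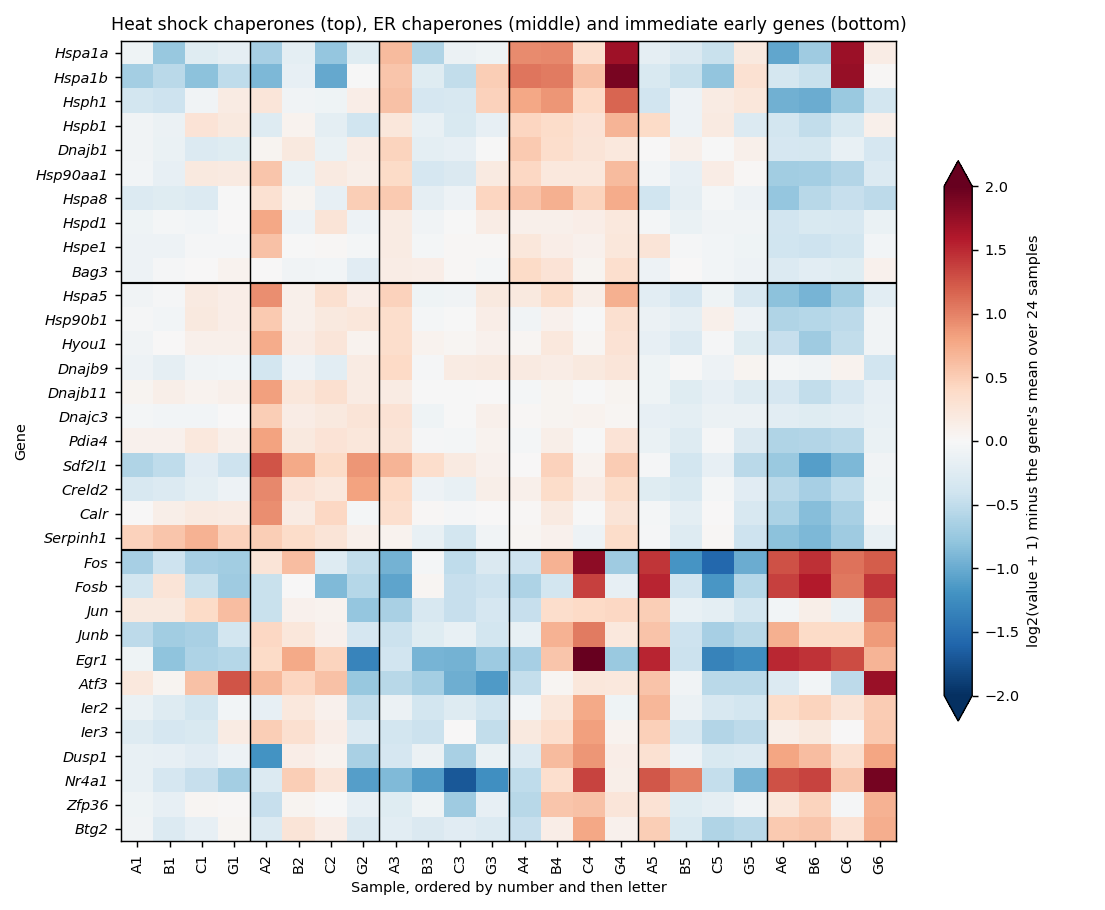
Log2 values of the 10 chaperones, the ER chaperones and the immediate early genes in the 24 samples, centred on each gene's mean and ordered by title number. Chaperones are high in number 4 and low in number 6, ER chaperones are low in number 6, and immediate early genes are high in number 6 and also in some samples elsewhere, such as C4 and A5.

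The genes most like the chaperones were found by correlation with the mean of their scaled log2 values over the 24 samples, among 15834 other genes with a mean of at least 100. The closest 8 had r from 0.919 to 0.965, given as a description because the samples share letters and numbers. Of these, 7 carried mouse gene-model names, Gm9408, Gm19829, Gm13498, Gm7002, Gm15542, Gm7198 and Gm6368, and the eighth was Cacybp (r = 0.946), which encodes a partner of the SIAH1 ubiquitin ligase. Such gene-model names made up 1949 of the 15834 genes compared and 25 of the closest 50. Whether reads of the chaperones themselves were assigned to these gene models was not tested, so they may not be separate genes with a like profile. Cacybp averaged 3558 in number 4 and 2062 in number 6, and between 2417 and 2847 in the other numbers.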

How the data were processed

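Lung RNA of 24 rat samples was taken from 1 deposited table of signal values. They were read as normalized read counts, because sample totals were nearly equal and low values lay close to, but not on, whole numbers; what the authors did is not stated. The submitters' processing notes name STAR and the mouse build GRCm38; the counting tool, annotation and normalization are not given in the sources used here. Low values did not return whole reads, so the count tests planned for raw counts were not used. Values were analysed as log2(value + 1) with limma 3.58.1 in R 4.3.3, limma-trend, over all 30667 genes (mean at least 0.5), with Benjamini-Hochberg adjustment over all genes and a threshold of 0.05. The letter fit compared 4 letter means, and the number fit had letter and number as additive terms. A fold on this scale understates the change of low genes. Fits were checked on simulated data. Python 3.11.15, pandas 2.3.3 and scipy 1.17.1 did the rest.

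The genes and lists were chosen with earlier results of these data known. Named from each list were the up to 3 genes with the smallest number F test p among those passing, plus Hsf1 and Hsp90ab1, and the 8 most like genes; others named were chosen after their values were seen. Same-numbered samples of letters B and A, and of C and B, deviated together in all 6 pairs (r from 0.169 to 0.59 and from 0.127 to 0.596 over 21922 genes). Other letter pairs did so in 4 or 5 of 6. The labels give no reason for this pairing. Depth before normalization is unknown, so no counting intervals are given. Proteins and the promoters of Hspa1b and Hsp90aa1 were not used here.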

Additional observations from a re-analysis of the deposited data

Results flagged for a closer look

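Within a letter or a number, 1 sample stood far from the rest by Dixon's test in 15 of 100 groups. Chance gives about 5 if groups are independent and values are normally distributed. These groups share samples, hold genes that vary together and were tested without a log scale. The 2 counts therefore cannot be compared directly. Among the 6 samples of letter B, B4 stood high for Hspa1a at 56.7, for Hspa1b at 3170, for Hsph1 at 12627 and for Hspa8 at 68291. In letter G, G4 stood high for Hspa1a at 94.8, for Hspa1b at 5782 and for Hspe1 at 1361. In letter C, C6 stood high for Hspa1a at 95.7 and for Hspa1b at 5188, and low for Hspe1 at 900.2. Among the 4 samples of number 6, C6 stood high for Hspa1b at 5188 and for Dnajb1 at 4592, and G6 for Hspe1 at 1127. In number 2, A2 stood high for Hspe1 at 1747, and in number 1, G1 stood high for Hspa8 at 41537. These are normalized read counts.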

How the results depend on the processing

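In every alternative run, 0 of the 10 genes passed over the letters. The 14 calls of the genes in the number contrasts (8 in number 4 and 6 in number 6) became 6 without A4 and B4, and pairs of chaperones with an adjusted Pearson p under 0.05 went from 37 to 23 in that setting, which was chosen after the data had been seen. Leaving out each sample in turn gave 0 calls over the letters and 0 in letter contrasts in every fit, 8 to 9 over the numbers and 11 to 18 in number contrasts. The 9 calls over the numbers became 6 without A4 and B4 and 7 without C6 and G4. In numbers 1, 2, 3 and 5 together, where no gene was called, quantile normalization gave 3 calls, a minimum mean of 10 gave 1, sample weights gave 1, leaving out A2 and C2 gave 1 and leaving out C6 and G4 gave 2. Leaving out 1 sample gave up to 3 there. The shares of all genes called there were not computed for these settings. With all samples, 11.9%, 21.8%, 4.98% and 1.97% of all genes were called in numbers 1, 2, 3 and 5. Hspb1 and Hsp90aa1 in number 4 lost their calls without B4 or G4, Bag3 without A4, and in number 6 Dnajb1 without A6 or B6, Hspd1 without A6, B6 or C6, and Hspe1 without A6. With quantile normalization Hspa1a in number 4 had an adjusted p of 0.0519. Other pseudocounts, filters, scalings and sample weights left both counts within 1.5 times, and no named difference that passed changed sign. Fitting the replicate number as a block in the letter fit gave 0 calls, with 10 of 60 contrasts under an unadjusted p of 0.05 (7.93% over all genes) and a smallest adjusted p of 0.275. Without the block these were 0 of 60, 0.0741 as the smallest unadjusted p and 0.817 as the smallest adjusted p. DESeq2 was not run, since raw counts were not recovered. Alternatives that left out pairs of samples, summed Hspa1a and Hspa1b or set numbers 4 and 6 against numbers 1, 2, 3 and 5 were chosen after the data had been seen.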

Other observations

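Among genes with names other than mouse gene models, a restriction made after the data had been seen, the profiles closest to the mean of the chaperones after Cacybp were those of P4ha1, a collagen prolyl hydroxylase subunit (r = 0.894), Kat2a, a histone acetyltransferase (r = 0.877), Azi2 (r = 0.874), Gnat1 (r = 0.848), BC048507 (r = 0.846), Ddit3, the stress factor CHOP (r = 0.836), and Ubqln1, a ubiquitin-binding shuttle protein (r = 0.83). Ddit3 averaged 2386 in number 4 and 1446 in number 6, and P4ha1 averaged 9550 and 5660. Upward deviations in C6 were ranked among the 15914 genes with a mean of at least 100. The 3 genes above Hspa1b were Gm47098 (2.70 on the log2 scale after letter and number means), Spp1 (1.67), which encodes osteopontin, and Myl7 (1.65), an atrial myosin light chain. Hspa1b deviated by 1.64. An upward deviation from these means need not be a high level. Myl7 was read at 139.3 in C6, below 1634 in A6 and 583.4 in B6, and at 0.87 in G6. Gm47098 was read at 335.1 in C6, 104.8 in A6, 0.0079 in B6 and 235.2 in G6. Spp1 was read at 311.7 in C6, 103.9 in A6, 59.15 in B6 and 28.07 in G6.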
